A study of Homo sapiens with 8 samples.

Results

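The large histone gene cluster and the major histocompatibility complex (MHC) lie side by side on the short arm of human chromosome 6. Regions of open chromatin in them were described in 8 ATAC-seq peak lists. Peaks of the 8 lists that shared at least 1 bp were merged into regions. A region belonged to the histone window when it started between 26.0 and 28.4 Mb of chromosome 6 in hg19, and to the MHC window when it started between 28.4 and 33.45 Mb. These bounds use no measured value, but they were chosen with earlier results of these data known. They held 413 of the 133028 merged regions, 151 in the histone window and 262 in the MHC.

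ATAC-seq marks open chromatin by cutting and tagging it with the transposase Tn5. The libraries came from 697 and KOPN-8, established B-lineage acute lymphoblastic leukaemia lines. In 697, 2 libraries came from clone BM_B, which received a guide against SETD2 and is labelled SETD2 heterozygous KO, and 2 came from the empty sgRNA vector control, labelled SETD2 WT. In KOPN-8, 2 libraries came from clone BA with the same SETD2 label, and 2 from the empty vector control. SETD2 is the methyltransferase that trimethylates lysine 36 of histone H3 along transcribed genes. Each edited group is 1 clone, so the effect of the edit and a difference between 1 clone and its control cells cannot be told apart. Duplicates are labelled biological replicates with no word on separate cultures, so every p-value measures the spread between these libraries, which may be technical.

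The lists held 57154 to 76495 peaks, and chromosome 6 took 5.79% to 5.88% of the peaks in the 697 lists and 6.35% to 6.54% in the KOPN-8 lists. Read depth is unknown. The edit itself and B-lineage markers were not analysed here, because no gene annotation in hg19 was used. For the same reason no region is tied to a gene. A library is said to call a region where its list has a peak in it. The value given for each peak carries no name and was taken as the authors' fold enrichment over background. It was used only to rank peaks within a list, as a percentile from 0 to 100. Folds are printed below to describe each library, and a fold is not compared between libraries.

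As background, replication-dependent histone genes encode the core histones H2A, H2B, H3 and H4 and the linker histone H1. They stand in dense clusters, often as divergent pairs, and are transcribed strongly in S phase. The MHC class I genes encode the chains that present intracellular peptides to cytotoxic T cells, and the class II genes encode those that present endocytosed peptides to helper T cells. Class II expression is a trait of B cells and other antigen-presenting cells and depends on the coactivator CIITA. The class III stretch between them holds complement and cytokine genes such as TNF and LTB. The MHC window was divided along the chromosome into extended class I (28.4 to 29.6 Mb), class I (29.6 to 31.5 Mb), class III (31.5 to 32.4 Mb), class II (32.4 to 33.1 Mb) and extended class II (33.1 to 33.45 Mb).

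The promoters of the gene families that give both windows their names differ in a few short motifs. They were taken from RefSeq in GRCh38.p14, from 250 bases before to 50 bases after the first listed start of each gene. Promoters were found for 50 of the 55 protein-coding histone genes on chromosome 6, for 4 of 6 HLA class I genes and for 12 of 15 HLA class II genes. The octamer ATTTGCAT, read on either strand, is the site of the POU factors OCT1 and OCT2 and is known from H2B promoters and immunoglobulin promoters. It was present in 12 of 15 H2B promoters (80%) and 9 of 11 H2A promoters (81.8%), in 1 of 8 H3 promoters, in none of the 10 H4, 6 H1, 4 HLA class I and 12 HLA class II promoters, and in 1.8% of the 27305 promoters of the table. The letters CCAAT, the core of the NF-Y site, stood in all H1, H2A, H2B and H3 promoters found, in 3 of 10 H4 promoters, in 3 of 4 HLA class I promoters and in 11 of 12 HLA class II promoters (91.7%), against 35.7% of all promoters. The letters TATAAA stood in 33 of 50 histone promoters (66%) and 3 of 12 class II promoters, against 12% of all. A divergent pair (H2BC4 and H2AC6), a class I gene (HLA-B) and a class II gene (HLA-DRB1) are shown as examples of these differences, each by the 150 bases that run 5′ to 3′ on the gene's strand up to its start, with capitals marking the motifs above on either strand.
H2BC4, minus strand: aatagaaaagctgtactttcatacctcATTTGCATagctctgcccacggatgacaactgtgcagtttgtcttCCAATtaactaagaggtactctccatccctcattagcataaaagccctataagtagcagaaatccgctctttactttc
H2AC6, plus strand: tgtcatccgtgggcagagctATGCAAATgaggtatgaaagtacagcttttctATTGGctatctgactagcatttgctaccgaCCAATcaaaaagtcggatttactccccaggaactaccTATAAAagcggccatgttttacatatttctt
HLA-B, minus strand: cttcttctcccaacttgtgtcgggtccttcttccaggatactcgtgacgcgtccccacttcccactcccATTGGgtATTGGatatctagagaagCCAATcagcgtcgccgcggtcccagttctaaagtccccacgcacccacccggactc
HLA-DRB1, minus strand: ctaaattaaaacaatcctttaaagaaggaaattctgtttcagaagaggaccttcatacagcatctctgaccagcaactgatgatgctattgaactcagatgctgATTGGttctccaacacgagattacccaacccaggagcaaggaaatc
The 300-base windows of H2BC4 and H2AC6 share 255 bases, so their octamer is the same site read from both sides. A match of letters is a description and not a bound site.

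Open regions in the histone window were wider than in the rest of chromosome 6 and about as dense as in class III. Every library called 77 of the 151. The histone window held 62.9 regions per Mb, and its regions had a median width of 568 bp, against 335 bp in the rest of chromosome 6. The MHC held 51.9 regions per Mb with a median width of 437.5 bp. Within it, density was lowest in extended class I, at 27.5 regions per Mb. It was 52.1 in class I, 63.3 in class III and 65.7 in class II, and it was highest in extended class II, at 77.1. Extended class II also had the widest regions, with a median of 657 bp, and extended class I the narrowest, with a median of 350 bp. Spacing between neighbours, measured from the end of one region to the start of the next, had a median of 6.27 kb over the 413 regions and 10.5 kb over all regions.

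The histone regions fell into 3 blocks. The block at 26.0 to 26.7 Mb held 77 regions, that at 27 to 27.5 Mb held 22, and that at 27.6 to 28.4 Mb held 52. No library called a region between 26660600 and 27046491, a stretch of 386 kb and the longest empty one in either window. The next longest were 275 kb in extended class I, from 29183148 to 29458468, and 219 kb in class III, from 32164416 to 32383294. The lists hold no reads outside peaks, so a stretch without a call is not shown to be closed. At the other end, 31.5 to 31.6 Mb in class III held 21 regions, the most of any 0.1 Mb stretch, and 32.9 to 33.0 Mb in class II held 18.

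**Figure D1:**
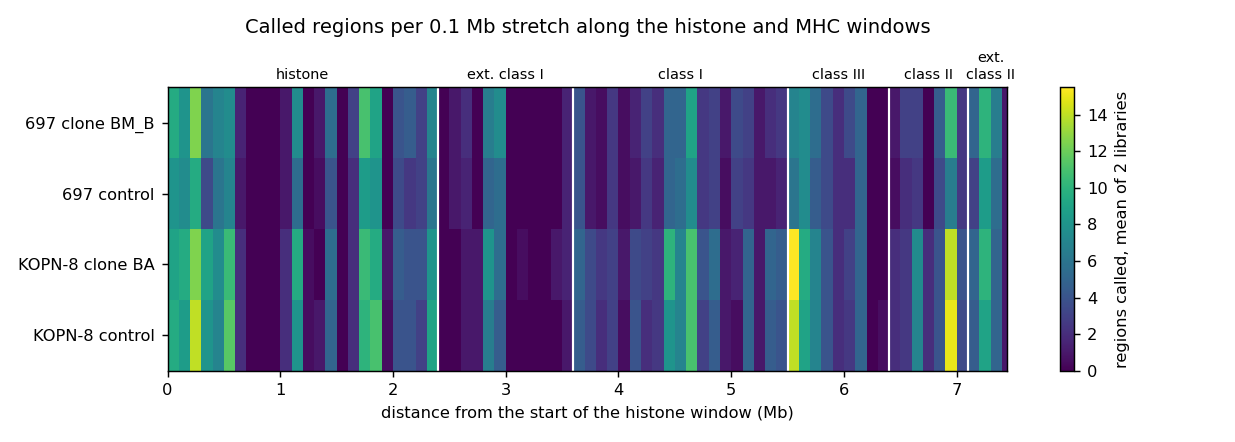
Number of regions called per 0.1 Mb stretch (colour, mean of the 2 libraries of a group) against the distance from the start of the histone window in Mb, with a row for each group and white lines between classes. The empty stretch inside the histone window is shared by all 4 groups, and the brightest stretches of the KOPN-8 rows lie in the first part of the histone window, at the start of class III and in class II.

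Many of these regions were open in both lines and both arms. Of the 413 regions, 169 (40.9%) were called in all 8 libraries, against 20.4% of all merged regions and 18.8% of those in the rest of chromosome 6. The share was 51% in the histone window (77 of 151) and 35.1% in the MHC (92 of 262). It ran from 15.2% in extended class I over 28.3% in class II, 33.3% in class I and 47.4% in class III to 51.9% in extended class II. Regions called by 1 library alone made up 14.5% of the 413, against 30.2% of all regions. Regions are not independent replicates, so these shares are given with no test.

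The strongest shared region of the histone window, by its lowest percentile over the 8 lists, was chromosome 6 26659537 to 26660599. It had folds of 17 and 15.4 in the 697 clone and 13.8 and 14 in its control, and of 18.1 and 18.8 in the KOPN-8 clone and 16.7 and 17.3 in its control. Its lowest percentile was 94.5, and it borders the long empty stretch. The second was 26457766 to 26458630, with folds of 11.4 and 14.5 in the 697 clone, 14.9 and 13.7 in its control, 16.9 and 14.1 in the KOPN-8 clone and 13.1 and 11.5 in its control.

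In the MHC the strongest shared region was 33385587 to 33386541 in extended class II, with a lowest percentile of 90.5. Its folds were 13.5 and 14.5 in the 697 clone, 12.2 and 13.3 in the 697 control, 12.8 and 14 in the KOPN-8 clone and 12.6 and 12.5 in the KOPN-8 control. In class III the region 31830442 to 31831011 had a lowest percentile of 84.7. In class I the region 30180819 to 30181651 reached 84.2, and so did 28890702 to 28892384 in extended class I. The strongest shared region of class II, 32820871 to 32822102, ranked lower, with a lowest percentile of 78.6. Its folds were 11.6 and 11.5 in the 697 clone, 9.46 and 10.8 in the 697 control, 9.97 and 11.1 in the KOPN-8 clone and 9.19 and 9.65 in the KOPN-8 control. The widest region of the class II window, 32811687 to 32813564, spanned 1878 bp and was also called in all 8 libraries.

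More regions were called in KOPN-8 than in 697 in both windows and in each class of the MHC. At least 1 library of 697 called 300 of the 413 regions (72.6%), and at least 1 of KOPN-8 called 384 (93%). Over all merged regions the order was the other way round, with 71.7% called in 697 and 67.8% in KOPN-8. In the rest of chromosome 6 the order was the same as in the windows, with 67.3% called in 697 and 71.3% in KOPN-8. That gap was narrower than over the 413 regions. In the histone window 697 called 116 regions and KOPN-8 143. In class I 697 called 66 and KOPN-8 93. In class III 697 called 40 and KOPN-8 53, and in class II 697 called 28 and KOPN-8 43. The extended classes were nearly even, with 25 regions called in 697 and 26 in KOPN-8 in each of them.

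**Figure D2:**
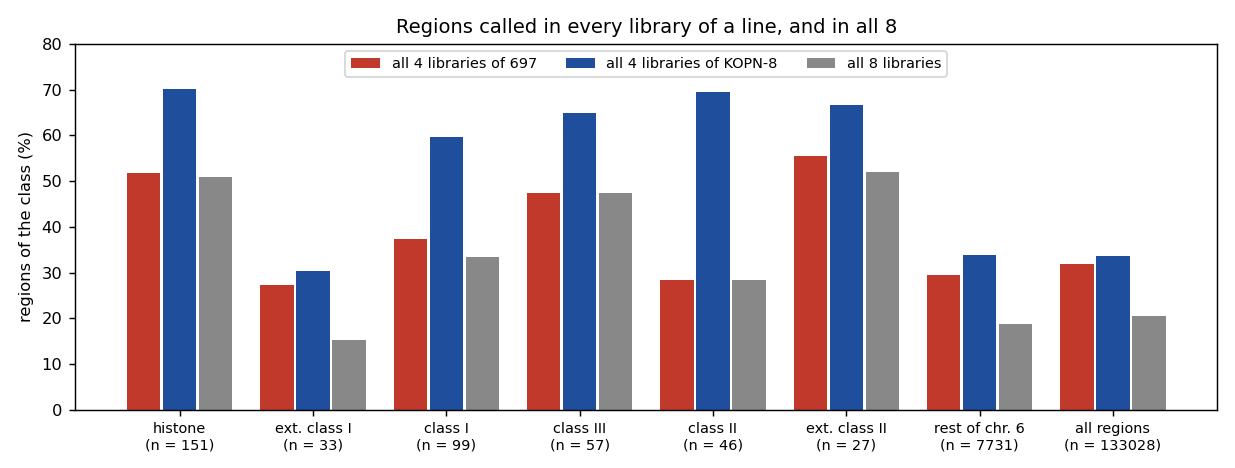
Percentage of the regions of each class that were called in all 4 libraries of 697, in all 4 of KOPN-8 and in all 8, with the number of regions under each class. Class II has the widest gap between the lines, 28.3% in 697 and 69.6% in KOPN-8, while over all regions the values are 31.9% in 697 and 33.6% in KOPN-8.

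The share of a list's peaks that fell in a window takes the list's length into account. The MHC held 0.246% and 0.239% of the peaks of the 697 clone lists and 0.222% and 0.221% of its control lists. It held 0.324% and 0.322% in the KOPN-8 clone lists and 0.301% and 0.300% in the KOPN-8 control lists. All 4 lists of 697 lay below all 4 of KOPN-8. The mean was 0.232% ± 0.0124 in 697 and 0.312% ± 0.0128 in KOPN-8 (SD, n = 4 each), a ratio of 0.745 (exact permutation test, two-sided, p = 0.0286, adjusted p = 0.04 over 7 windows). That p is the smallest that 4 lists against 4 allow. With labels permuted only within arms the smallest possible p is 0.0556, so no window could pass in that form of the exact test.

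The histone window held 0.187% and 0.165% of the peaks of the 697 clone lists, 0.163% and 0.150% of the 697 control lists, 0.204% and 0.206% of the KOPN-8 clone lists and 0.196% and 0.212% of the KOPN-8 control lists. The groups of the lines did not overlap, and the ratio of means was 0.813 (exact permutation test, two-sided, adjusted p = 0.04). As a share of chromosome 6 peaks alone, the histone window was no longer past the threshold (exact permutation test, adjusted p = 0.133), while the MHC stood at the threshold (exact permutation test, adjusted p = 0.05). The share of chromosome 6 in the list was itself lower in 697. The histone difference also fell short when any 1 KOPN-8 library was left out (exact permutation test, adjusted p = 0.08).

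Among the classes, class II differed most, with 0.0343% ± 0.00521 in 697 and 0.0587% ± 0.00246 in KOPN-8 (SD, n = 4 each), a ratio of 0.584. Class I had a ratio of 0.673 and class III one of 0.758. Each of these 3 classes reached the smallest possible unadjusted p (exact permutation test, two-sided, p = 0.0286, adjusted p = 0.04). Among the strongest 50% of each list the class III difference was no longer past the threshold (exact permutation p = 0.2, adjusted p = 0.28). Extended class I had a ratio of 1.1 (exact permutation p = 0.429) and extended class II one of 0.935 (exact permutation p = 0.543), with lists of both lines overlapping. Each line is 1 source of cells, so these values compare 2 lines and nothing they might stand for.

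**Figure D3:**
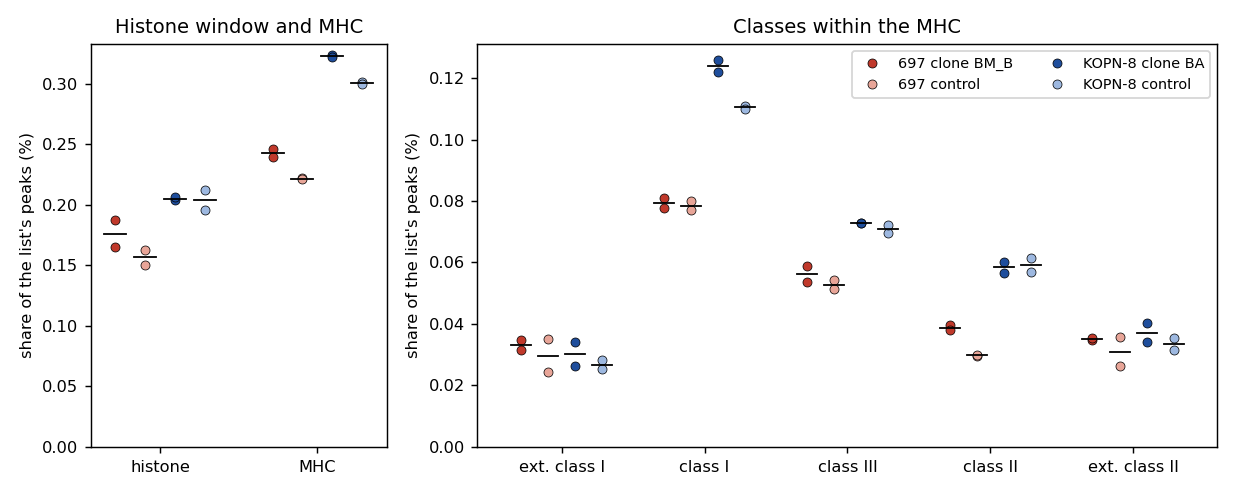
Share of each list's peaks (%) in the histone window and the MHC (left) and in the classes of the MHC (right), with a point per library and a line at the mean of each group. In class I, class III and class II every 697 point lies below every KOPN-8 point, while the extended classes overlap.

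Regions that split the lines completely ran the same way. Called in all 4 libraries of 697 and none of KOPN-8 were 6 of the 413 regions (1.45%), against 5.85% of all merged regions. Called in all 4 of KOPN-8 and none of 697 were 25 (6.05%), against 7.3% of all. Both shares are below that background, the first by more. By window, 1 histone region was called in 697 alone and 5 (3.31%) in KOPN-8 alone, and in the MHC 5 (1.91%) were called in 697 alone and 20 (7.63%) in KOPN-8 alone. Without the second library of the 697 clone, the histone regions called in KOPN-8 alone numbered 10, and without the first 697 control library those called in 697 alone numbered 2.

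In 697 alone, the strongest region was 29600171 to 29601351 at the start of class I. Its folds were 10.2 and 10.7 in the clone and 9.84 and 9.19 in the control, and its lowest percentile was 79.4. The next was 28574158 to 28575123 in extended class I, with folds of 11.5 and 12.7 in the clone and 9 and 11.1 in the control. A pair of close neighbours in class I, 31020961 to 31021498 and 31021612 to 31022085, was also called in 697 alone. They lie in the 0.1 Mb stretch from 31.0 Mb, where the 697 clone called 3 and 4 regions, its control 2 and 4, the KOPN-8 clone 2 and 1, and the KOPN-8 control 1 and 0. By the rule, the pair counts in every 697 value and in no KOPN-8 value. The stretch was picked because it holds the pair, so its counts are no separate evidence of a line difference. The only histone region called in 697 alone was 27725022 to 27725527, with folds of 4.8 and 4.55 in the clone and 5.66 and 4.17 in the control.

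In KOPN-8 alone, the strongest histone region was 26240304 to 26241147, with folds of 10.1 and 9.61 in the clone and 8.04 and 8.22 in the control. It was followed by 26521826 to 26522615, with 10.9 and 9.31 in the clone and 7.92 and 9.12 in the control, and by 26351723 to 26352106, with 6.87 and 6.94 in the clone and 6.74 and 8.16 in the control. All 5 histone regions called in KOPN-8 alone lay in the first of the 3 histone blocks. Class I held 10 such regions (10.1% of its 99, against 7.3% of all regions), while the count was 6 with equal list lengths and 4 among the strongest 50% of each list. The last 4 were not all among the 10. The 10 were led by 30679587 to 30680165 with folds of 7.93 and 7.67 in the clone and 7.08 and 7.46 in the control. Extended class I held 1, at 28749534 to 28750192, with folds of 9.49 and 9.17 in the clone and 7.7 and 7.9 in the control.

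In class III both regions called in KOPN-8 alone, 31526714 to 31527116 and 31554314 to 31554729, stood in the dense stretch from 31.5 to 31.6 Mb. There the 697 clone called 6 and 8 of the 21 regions and its control 5 and 7. The KOPN-8 clone called 17 and 14 and its control 15 and 13. No library of 697 reached the lowest count of KOPN-8 in that stretch, which was picked after its values were seen.

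The class II window showed the widest gap between the lines. The 697 clone called 23 and 26 of its 46 regions and the 697 control 15 and 20, while the KOPN-8 clone called 36 and 36 and the KOPN-8 control 35 and 37. The 4 libraries of KOPN-8 had 32 regions in common (69.6%), and those of 697 had 13 (28.3%). All 13 were also called in every library of KOPN-8, so that no class II region was called throughout 697 and left uncalled anywhere in KOPN-8. Here too a missing call is not shown to be closed chromatin, and how reads mapped in each line was not examined. Of the 32 regions, 697 called 13 in 4 libraries, 4 in 3, 7 in 2, 1 in 1 and 7 in none. The difference was thus made up of regions that 697 called in some libraries as well as of regions that it did not call at all.

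The 7 class II regions called in every KOPN-8 library and none of 697 made up 15.2% of the window, against 7.3% of all merged regions. The strongest, 32627665 to 32628047, had folds of 6.87 and 6.69 in the KOPN-8 clone and 7.94 and 7.64 in its control. The region 32995621 to 32996009 had 8.9 and 5.16 in the clone and 6.17 and 6.14 in the control. A pair of neighbours at 32764778 to 32765117 and 32765227 to 32765659 was open together, with folds of 4.97 and 5.95 in the clone and 7.7 and 5.27 in the control for the first. The other 3 were 32405163 to 32405606, 32647175 to 32647686 and 32912935 to 32913539. These 3 and the second of the neighbours are named after their values were seen. With only the strongest 50% of each list counted, 3 class II regions met the rule, and they were not all among the 7. Of the 7, only 32627665 to 32628047 had a percentile above 50 in every KOPN-8 list, with a lowest of 57.9. The next of them had a lowest percentile of 37.5.

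**Figure D4:**
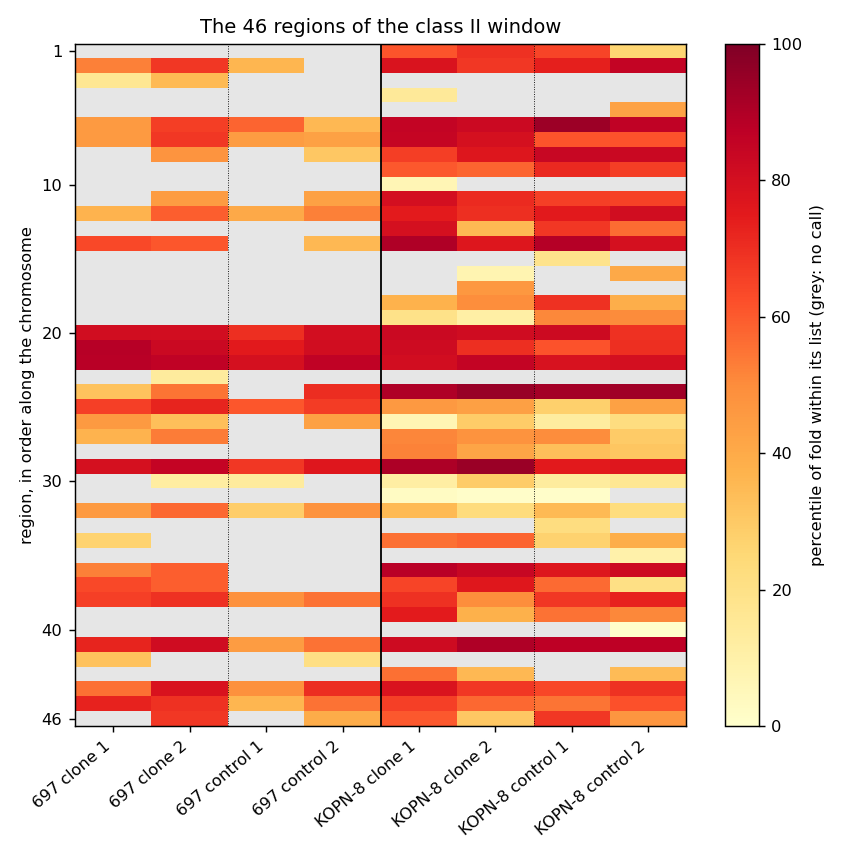
Percentile of the fold within its list (colour, grey where the library has no call) for the 46 regions of the class II window in chromosome order, with a column per library. The KOPN-8 columns are filled for 35 to 37 regions and the 697 columns for 15 to 26, and the 697 control columns hold the fewest.

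Every region that met the rule for a change in the 697 clone was a gain. A region counted as gained when both clone libraries and neither control library called it, and as lost where both control libraries and neither clone library did. The 697 clone gained 15 of the 300 regions called in 697 (5%), against 4.3% of all regions, and lost 0, against 1.85% of all. The share gained was close to the background. The histone window gained 9 of 116 (7.76%) and lost 0, and the MHC gained 6 of 184 (3.26%) and lost 0. No test was run on single regions, so a count of 0 lost says only that no region met the rule; with 2 libraries against 2 in a line, the smallest p of an exact permutation test is 0.333. Without the first control library, 5 MHC regions and 0 histone regions met the looser rule for a loss.

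Counts of gains leaned on single libraries, since a rule over 3 libraries is looser. The histone gains then numbered between 11 without the first control library and 21 without the second, and the MHC gains between 12 without the second clone library and 27 without the first. The clone lists held 63012 and 76495 peaks and the control lists 57154 and 70099. With all lists cut to 57154 peaks, the clone gained 8 histone and 5 MHC regions and lost 0 in both. Among the strongest 50% of each list the split between windows turned round, with 1 histone and 14 MHC regions gained.

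The histone regions gained in 697 were weak calls, with a median over regions of 21.4 for the lower of the clone percentiles, the same as over all regions gained in 697. The strongest by that measure, 27642734 to 27643066, had folds of 5.7 and 5.34 in the clone and no call in any other library. The region 26305002 to 26305887 had 4.85 and 5.12 in the clone and none in its control, and it was called in all 4 KOPN-8 libraries. The third, 26034301 to 26034583, had 4.87 and 4.28 in the clone and no KOPN-8 call. Of the 9, 5 lay in the block at 26.0 to 26.7 Mb, 1 at 27 to 27.5 Mb and 3 at 27.6 to 28.4 Mb.

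In the MHC, 4 of the 6 gains in 697 lay in class II, with a median lower percentile of 44.7. Their lower percentiles were 59, 52.4, 37.1 and 16.2, the last of them below the median of 21.4 for the histone gains. The 4 gains were 14.3% of the 28 class II regions called in 697, against 4.3% of all regions. The region 32986651 to 32987046 had folds of 7.41 and 6.68 in the clone and no call in the control, with 7.4 and 9.09 in the KOPN-8 clone and 6.29 and 4.31 in the KOPN-8 control. The region 32976997 to 32977640 had 6.27 and 6.68 in the clone and none in the control, with 11.9 and 10.7 in the KOPN-8 clone and 8.84 and 10.2 in the KOPN-8 control. The region 32912111 to 32912520 had 5.14 and 6.17 in the clone and none in the control, and it too was called in every KOPN-8 library. The fourth, 32557471 to 32557808, had 3.99 and 4.68 and no KOPN-8 call, and is named after its values were seen.

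Class II gains numbered 4 with equal list lengths and 4 among the strongest 50% of each list. The latter were not the same 4 regions. The gains with lower percentiles of 37.1 and 16.2 fall outside the strongest 50%, and a region also counts there when its control call is cut. They numbered 5 when either clone library or the first control library was left out, and 7 without the second control library. The stretch from 32.9 to 33.0 Mb held 3 of the 4. There the clone called 11 and 10 of the 18 regions and the 697 control 6 and 7, while the KOPN-8 clone called 14 and 14 and the KOPN-8 control 15 and 15. By the rule, the 3 gains count in both 697 clone values and in neither control value. The stretch was picked because it holds them, so its counts are no separate evidence of a gain. The other 2 MHC gains in 697 were in class I, at 30658461 to 30658958 with folds of 4.12 and 4.09 in the clone, and at 31465469 to 31465957 with 3.99 and 4.68.

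Of the 15 regions gained in 697, 6 were called in all 4 KOPN-8 libraries, 10 in at least 1 and 5 in none. Over all regions gained in 697, 923 of 4102 were called in all 4 KOPN-8 libraries. Of the 413 regions of both windows 262 (63.4%) were, a larger share than among the 15 gained. The 6 were open in the control of the other line as well as in its clone.

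The KOPN-8 clone both gained and lost regions in these windows. It gained 9 of the 384 regions called in KOPN-8 (2.34%), against 3.61% of all regions, and lost 4 (1.04%), against 3.82% of all. Both shares were below the background. The histone window gained 2 and lost 3 of 143, and the MHC gained 7 and lost 1 of 241. No region of class II was gained or lost. Without the second clone library the gains numbered 10 in the histone window and 25 in the MHC, and without the second control library the losses numbered 8 in the histone window and 10 in the MHC.

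The strongest histone gain in KOPN-8 was 26400962 to 26401232, with folds of 5.74 and 5.21 in the clone and no call in any other library. The other was 28219430 to 28219736, with 4.26 and 4.46. The histone losses were 27356364 to 27356949, with no clone call and folds of 5.54 and 5.79 in the control, 28393726 to 28394158, with 4.33 and 5.53 in the control, and 27862161 to 27862399, with 3.11 and 3.71 in the control. The first of these was called in 3 of the 4 libraries of 697.

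In class I the KOPN-8 clone gained 3 regions and lost 1. The gain 30431459 to 30431743 had folds of 5.45 and 6.45 in the clone. The gain 30293494 to 30293805 had 4.05 and 5.19 in the clone and none in the KOPN-8 control, and it was called in all 4 libraries of 697, with 5.32 and 5.76 in the clone and 5.7 and 4.62 in the control. The loss was 29720233 to 29720511, with folds of 3.76 and 3.52 in the control. Class III gained 2, at 31566369 to 31566672 and 31539877 to 31540452, extended class I gained 29557301 to 29557551, and extended class II gained 33112182 to 33112462. Of the 9 regions gained in KOPN-8, 7 were called in no library of 697, and over all regions gained in KOPN-8 this held for 1913 of 3254.

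No region of either window was changed in both lines, in any direction. Changed the same way in both lines were 0 of the 413 regions, against 121 of all 133028 merged regions. With so few over all regions, a count of 0 does not set these windows apart.

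**Figure D5:**
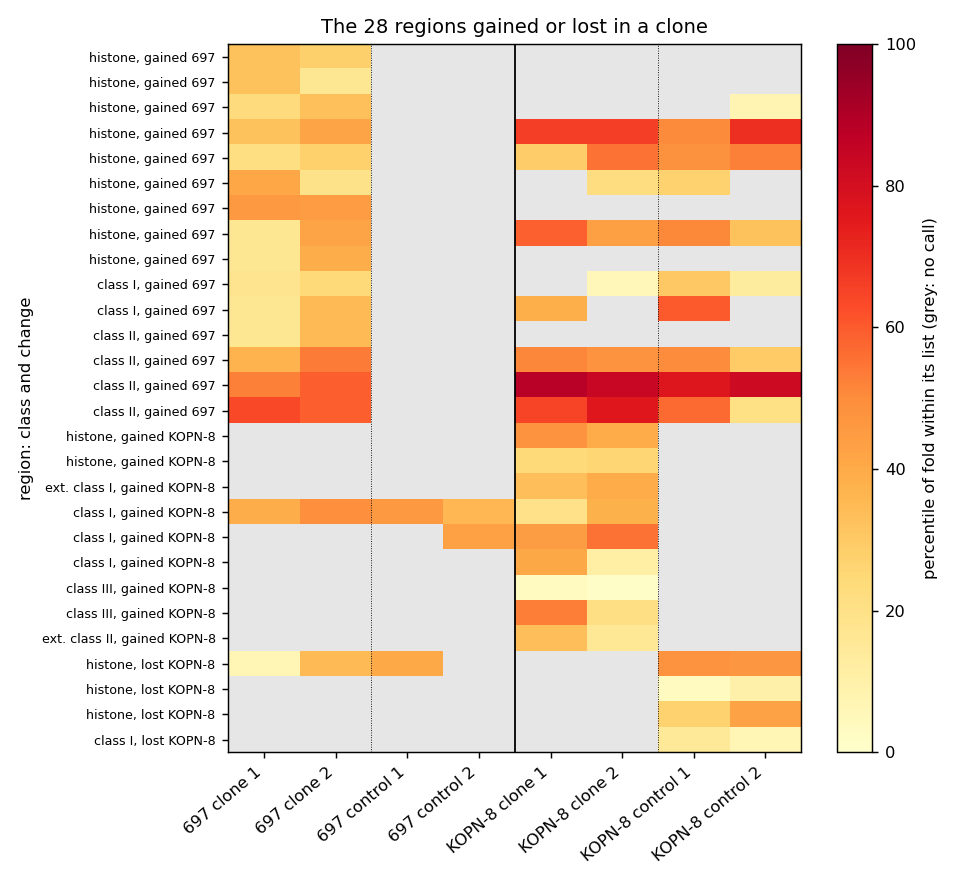
Percentile of the fold within its list (colour, grey where the library has no call) for the 28 regions gained or lost in a clone, with a row per region and a column per library. The 15 regions gained in 697 fill the rows at the top, and 6 of them are filled in all 4 KOPN-8 columns, while most regions changed in KOPN-8 are grey in 697.

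The share of peaks in the MHC was higher in the clone lists than in the control lists of both lines. It averaged 0.243% ± 0.00478 in the 697 clone and 0.222% ± 0.000771 in its control, and 0.323% ± 0.00161 in the KOPN-8 clone and 0.301% ± 0.00044 in its control (SD, n = 2 each). The clone lists lay above the control lists in both lines, by 0.0209 percentage points in 697 and 0.0221 in KOPN-8. Over both lines the mean difference was 0.0215 percentage points (exact permutation test within lines, two-sided, p = 0.0556, adjusted p = 0.389 over 7 windows). That p is the smallest the design allows, so the test cannot pass the threshold of 0.05.

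In the histone window the clone lists lay above the control lists in 697 and overlapped with them in KOPN-8, and the mean difference was 0.0101 percentage points (exact permutation p = 0.278, adjusted p = 0.389). In class II the 697 clone held 0.0397% and 0.0379% of its peaks, above the 0.0297% and 0.03% of its control. The KOPN-8 clone held 0.0565% and 0.0603% in class II, and its control 0.0568% and 0.0613%, which overlap. In class I the pattern was the other way round. The 697 clone held 0.0778% and 0.0811% and its control 0.077% and 0.0799%, which overlap, while the KOPN-8 clone, at 0.126% and 0.122%, lay above its control, at 0.111% and 0.11%. Whether the difference between clone and control itself differs between the lines was not tested.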

How the data were processed

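ATAC-seq peak lists of 8 libraries were used, 2 for each of 4 groups. Per the submitters' processing notes, Bowtie2 served for alignment, MACS2 for peak calling and hg19 as the genome. Versions, settings and any shift of transposase cuts were not given in the sources used here. In the deposited lists each peak has 1 value, taken as the authors' fold, a linear ratio over background, which served only to rank peaks within a list. Lists were made per library, without pooling. Positions are in hg19 and counted from 1.

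Peaks sharing at least 1 bp were merged over the 8 lists, and regions were assigned to windows by their start. The windows, class bounds and rules were chosen with earlier results of these data known. Per class, the regions named are up to 2 called in all 8 libraries and up to 3 per line that were gained, lost or called in that line alone, ordered by their lowest percentile within the lists that call them, plus any changed in both lines. The widest class II region and those described as named after their values were seen fall outside this rule. Shares of peaks were compared with exact permutation tests in Python 3.11.15 (NumPy 2.4.6, SciPy 1.17.1), with Benjamini-Hochberg adjustment over 7 windows and a threshold of 0.05. The code was tested on simulated lists. Alternatives were the strongest 50% of each list, equal list lengths, a 50% cover, assignment by midpoint, merging per line, shares of covered bases or of chromosome 6 peaks, each library left out, permutation within arms and a replicate block. Planned gene lists and cell type markers need an hg19 annotation and were not analysed here. Motif searches used RefSeq promoters in GRCh38.p14.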

Additional observations from a re-analysis of the deposited data

How the results depend on the processing

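Equal list lengths and assignment by midpoint left the counts of the histone window and of the whole MHC within 1.5 times the reported ones. Within the MHC, equal lengths gave 6 class I and 1 class III regions called in KOPN-8 alone and 1 class I gain in 697. With only the strongest 50% of each list, gained histone regions numbered 1 in 697 and 4 in KOPN-8, gained MHC regions in 697 14, and lost histone regions in KOPN-8 0; called in 697 alone were 0 histone regions, and in KOPN-8 alone 9 histone and 10 MHC regions. With calls covering 50% of a region, 697 gained 14 histone and 16 MHC regions and KOPN-8 4 histone regions, 11 histone regions were called in KOPN-8 alone and 3 MHC regions in 697 alone. Merging only the lists of a line gave 3 lost MHC regions in KOPN-8. The strongest 50% leave out weak calls and a 50% cover leaves out narrow calls by construction; further causes were not tested.

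Leaving out each library in turn gave 12 to 27 gained MHC and 11 to 21 gained histone regions in 697, 0 to 5 lost MHC and 0 lost histone regions, 10 to 25 gained MHC and 3 to 10 gained histone regions in KOPN-8, and 3 to 10 and 3 to 8 lost. Regions of 697 alone numbered 5 to 7 in the MHC and 1 to 2 in the histone window, and those of KOPN-8 alone 20 to 28 and 5 to 10. The difference of 697 minus KOPN-8 in the share of peaks ranged from -0.0842 to -0.0755 percentage points in the MHC and from -0.0453 to -0.0328 in the histone window, and that of clones minus controls from 0.0198 to 0.0232 and from 0.00448 to 0.0158. Without any 1 library of KOPN-8 the histone difference between lines no longer passed (exact permutation p = 0.0571, adjusted p = 0.08), while the MHC difference reached an adjusted p of 0.04 to 0.05 without each library in turn (exact permutation).

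As a share of chromosome 6 peaks the histone difference between lines was -0.308 percentage points (exact permutation p = 0.114, adjusted p = 0.133). Permuting labels within arms left the line differences at -0.0382 (histone) and -0.0796 (MHC) with the smallest p that it allows (exact permutation p = 0.0556, adjusted p = 0.0778). With a replicate block they were -0.0382 in the histone window and -0.0796 in the MHC (exact permutation p = 0.125, adjusted p = 0.175, the smallest p possible); the differences of clones minus controls were 0.0101 and 0.0215. Deviations of same-numbered libraries in their region calls correlated at 0.0235 in 697 and 0.000597 in KOPN-8. Replicate 2 had the longer list in both arms of 697 (76495 against 63012 peaks in the clone, 70099 against 57154 in the control). It had the shorter list in both arms of KOPN-8 (64667 against 67301 in the clone, 63585 against 70430 in the control). Whether same-numbered libraries shared a batch was not tested. Differences in the extended classes turned round in 3 cases: among the strongest 50%, extended class I gave -0.0046 for clones minus controls and -0.000805 for 697 minus KOPN-8, and as a share of chromosome 6 peaks extended class II gave 0.0214 for 697 minus KOPN-8.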
